A study of Mus musculus with 4 samples.

Results

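The potassium channel genes described here are the rows of the deposited count table whose mouse symbol is Kcn followed by letters and a number, which takes in pore-forming subunits and the Kcn-named auxiliary subunits that bind them. Kcnj10 was left out of the set. The table held 91 such genes among 25965 rows. They were put in 5 classes by the letters of the symbol: 40 voltage-gated subunits, 14 inward rectifiers, 14 tandem-pore leak channels, 8 calcium- or sodium-activated channels and 15 auxiliary subunits. A class name need not describe the gating of every member. Symbols chose the members and no measured value did, although the gene set was drawn up with earlier results of these data known.

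The libraries were RNA-seq of female mouse neural stem cells grown from E14.5 embryos of a C57BL/6 129/Castaneus mix. The 2 deleted libraries were Smchd1 del/del, made by transducing part of each line with the retrovirus MSCV-Cre-puro, adding puromycin 24 h later and harvesting 7 days after transduction. The 2 control libraries were Smchd1 del/fl cells of the same lines, kept untransduced, so that all 4 libraries carried at least 1 del allele. All had a maternal 129 X chromosome with the Xist deltaA allele and a paternal Castaneus X chromosome. Because the controls were neither transduced nor selected, deletion, transduction and selection cannot be told apart. The column names give 2 line numbers, called line A and line B here, each with a deleted and a control library; the series text counts 3 lines per genotype, and others were not analysed here.

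Potassium channels let potassium leave or enter cells along its gradient and so set the resting potential and shape the electrical activity of a cell. Voltage-gated channels open on depolarisation, inward rectifiers and tandem-pore channels carry resting currents, and calcium- or sodium-activated channels couple ion entry to potassium efflux. Auxiliary subunits alter the gating or trafficking of the pore-forming subunits. In the brain, neurons are rich in voltage-gated channels, and astrocytes are known for inward rectifiers that take up extracellular potassium. Smchd1 is a chromosomal protein needed for silencing on the inactive X chromosome and at some autosomal gene clusters.

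The libraries held 33572648 counts (deleted, line A), 31823877 (deleted, line B), 29873400 (control, line A) and 34018500 (control, line B). Smchd1 had 23.4 and 26.6 counts scaled to library size as CPM, with edgeR's TMM factors, in deleted cells of lines A and B, against 93.5 and 102 CPM in control cells (log2 -1.96, edgeR adjusted p = 0.0194). The labelled tissue was checked by its markers, and 8 neural stem cell markers summed to 9468 and 8420 CPM in deleted cells, against 8789 and 8246 CPM in control cells. Of the 8, 1 was called higher and 0 lower. The higher one was Slc1a3, a glutamate transporter that astrocytes also express, with 2404 and 2611 CPM in deleted cells, against 1199 and 1383 CPM in control cells (log2 0.96, edgeR adjusted p = 0.0197). The intermediate filament genes did not pass: Nes had 1283 and 900.3 CPM in deleted cells, against 1663 and 1354 CPM in control cells (log2 -0.48, edgeR adjusted p = 0.0536), and Vim had 4065 and 2453 CPM in deleted cells, against 4394 and 3364 CPM in control cells (log2 -0.28, edgeR adjusted p = 0.179). Astrocyte markers differed between the groups: 5 of 8 passed the test as higher in deleted cells, against 3.71% of all tested rows. The 8 summed to 993 and 910 CPM in deleted cells, against 568 and 572.5 CPM in control cells. The fold change was positive for all 8, against 51.7% of all tested rows. The median log2 was 1.01, from 0.21 for Glul to 2.64 for S100b. All 8 were also read in control cells, where Gja1, the gap junction protein of astrocytes, had 124 and 103 CPM and S100b 2.05 and 0.851 CPM. The 7 neuron markers in the table summed to 102 and 65.9 CPM in deleted cells, against 199.9 and 102 CPM in control cells, with 1 higher (Elavl3, an RNA-binding protein of neurons) and 1 lower. The lower one, Syt1, a synaptic vesicle protein, had 61.4 and 25.9 CPM in deleted cells, against 170.4 and 72.0 CPM in control cells. The other 6 summed to 40.85 and 40.0 CPM in deleted cells, against 29.5 and 29.9 CPM in control cells, a sum added after the data were seen. Markers of the oligodendrocyte lineage summed to 2568 and 2476 CPM in deleted cells, against 2868 and 2459 CPM in control cells, and 0 of 7 tested passed. Microglia markers summed to 10.4 to 11.2 CPM over the 4 libraries, with Csf1r at 7.84 to 8.92 CPM and Tmem119 and Cx3cr1 at 0. Those of endothelium and mesenchyme summed to 16.4 to 29.2 CPM, with Acta2 at 8.42 to 25.2 CPM and Cdh5 at 0. The deleted library of line A stood apart in 8 interferon-stimulated genes, a list added after the data were seen: they summed to 310 and 54.7 CPM in deleted cells of lines A and B, against 66.2 and 41.7 CPM in control cells. Differences in line B alone, which hold no reads of that library, are therefore given beside the called members and partners. Those genes were called with that library in the fit, so the line B differences are no independent check. In bulk RNA, more cells of a type and more RNA per cell cannot be told apart, and the part of these markers in the results below was not tested.

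Of the 91 genes, 55 had enough reads to be tested and 10 were higher in deleted than in control cells at an adjusted p of 0.05 (edgeR quasi-likelihood test with line as a block, Benjamini-Hochberg over all 14860 tested rows), while 0 were lower. Over all tested rows, 551 (3.71%) were higher and 281 (1.89%) lower. Before adjustment, 23 members had a p under 0.05 with a positive change and 2 with a negative one, against 2553 (17.2%) and 2019 (13.6%) of all tested rows. Of the 10, 9 are described here: the voltage-gated Kcnc4, Kcna6, Kcna1, Kcnd2 and Kcna2, the inward rectifier Kcnj16, the sodium-activated Kcnt1 and the auxiliary subunits Kcnip3 and Kcnmb4. The median log2 fold change over the 55 tested members was 0.48, against 0.01 over all tested rows, and the lines taken singly gave medians of 0.44 (A) and 0.34 (B). A positive fold change was seen for 45 of the 55 (background 51.7%), and 39 were positive in both lines (background 38.1%). Both deleted libraries lay above both control libraries for 26 members (background 22.9%) and below them for 2 (background 22.8%). A filter on low counts favours genes that are high in one group, so these counts describe the tested members and not the family as a whole. The calls rest on pairing the libraries by line: without the line term edgeR called 0 members, with unadjusted p values under 0.05 for 11 positive and 1 negative changes, and DESeq2 without that term, an alternative added after the data were seen, called 4, namely Kcnip3, Kcnc4, Kcnmb4 and Kcnj16. Leaving out any 1 of the 4 libraries leaves a line unpaired, and the fold changes of all 10 were still positive. That sign was fixed in advance, since both deleted libraries lay above both control libraries for each of the 10.

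**Figure D1:**
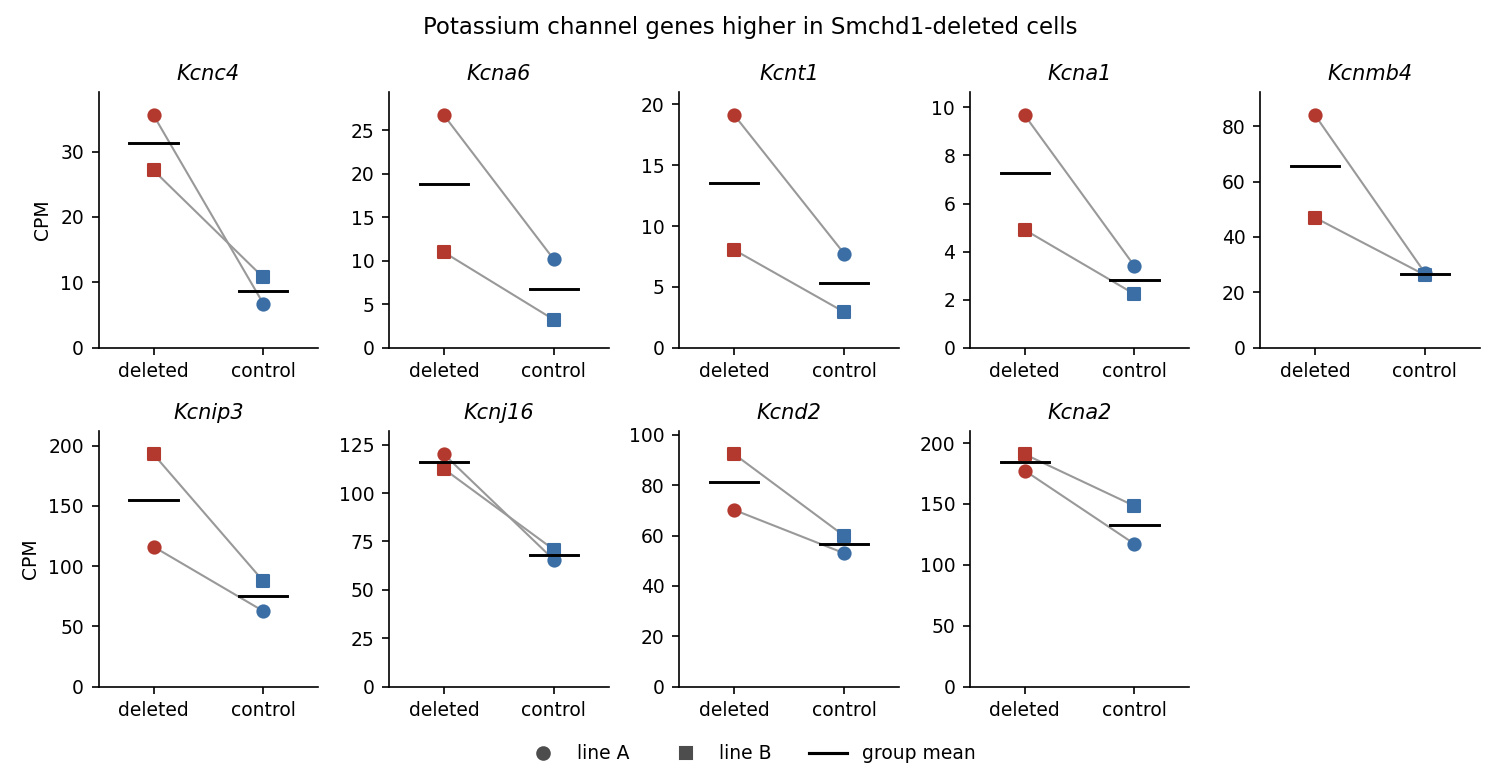
Level in CPM (linear axis from 0) of 9 of the potassium channel genes that passed the test, in deleted and control cells. Circles are line A, squares line B, grey lines join the libraries of a line and black bars are group means of 2 libraries. In every panel both deleted libraries lie above both control libraries; Kcnc4 shows the largest fold, with 35.6 and 27.1 CPM in deleted cells against 6.73 and 10.7 CPM in control cells.

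Voltage-gated subunits held 6 of the 10 calls, among 25 tested of 40. Of the 25, 24 had a positive fold change (background 51.7%) and 23 were positive in both lines (background 38.1%), with a median of 0.52. Summed over the class, they reached 1613 and 1636 CPM in deleted cells, against 1360.3 and 1310.2 CPM in control cells. Kcnc4, which encodes a channel that opens at strong depolarisation, had 35.6 and 27.1 CPM in deleted cells of lines A and B, against 6.73 and 10.7 CPM in control cells. Its log2 fold change was 1.85 ± 0.27 (SE; edgeR adjusted p = 0.0373), and the differences within lines A and B were 2.32 and 1.30. Kcnc1, the most abundant member, had 679 and 711 CPM in deleted cells, against 641 and 619.8 CPM in control cells. Its log2 fold change of 0.14 did not pass (edgeR adjusted p = 0.271), although both deleted libraries were above both control libraries.

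The Kcna genes encode low-threshold channels of axons and terminals, and 3 of 5 tested were called higher (background 3.71%). Kcna6 had 26.7 and 10.97 CPM in deleted cells of lines A and B, against 10.2 and 3.23 CPM in control cells. Deleted line B and control line A had close values, and the within-line log2 differences were 1.35 (A) and 1.62 (B), with a fold change of 1.56 ± 0.15 (SE; edgeR adjusted p = 0.0226). Kcna1 had 9.67 and 4.91 CPM in deleted cells, against 3.40 and 2.23 CPM in control cells. Kcna1 changed by 1.33 ± 0.20 (SE; edgeR adjusted p = 0.0398), or 1.38 and 0.99 in lines A and B. Kcna2 had 177 and 191 CPM in deleted cells, against 117 and 148 CPM in control cells, a change of 0.48 ± 0.08 (SE; edgeR adjusted p = 0.0484), or 0.60 and 0.36 in lines A and B. Kcnd genes encode subunits of fast-inactivating, A-type currents. Kcnd2 had 70.2 and 92.3 CPM in deleted cells, against 53.0 and 59.9 CPM in control cells, a change of 0.52 ± 0.08 (SE; edgeR adjusted p = 0.0422), and 0.62 in line B alone. Its relative Kcnd3 was more abundant and did not pass: 393 and 469 CPM in deleted cells, against 384 and 365 CPM in control cells (log2 0.20, edgeR adjusted p = 0.253). Kcnv1, a silent subunit that modifies Kcnb channels, had 34.5 and 12.6 CPM in deleted cells, against 11.8 and 8.10 CPM in control cells. Its log2 fold change of 1.11 missed the threshold (edgeR adjusted p = 0.0639), with 1.51 and 0.61 in lines A and B. It passed by DESeq2 with the line block (adjusted p = 0.000786) and in edgeR with no filter on low counts (0.0252) or a minimum of 1 CPM (0.0451). Kcnf1, another silent subunit, had differences of opposite sign in the lines, with 38.6 and 9.97 CPM in deleted cells, against 29.0 and 13.9 CPM in control cells (edgeR adjusted p = 0.995).

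**Figure D2:**
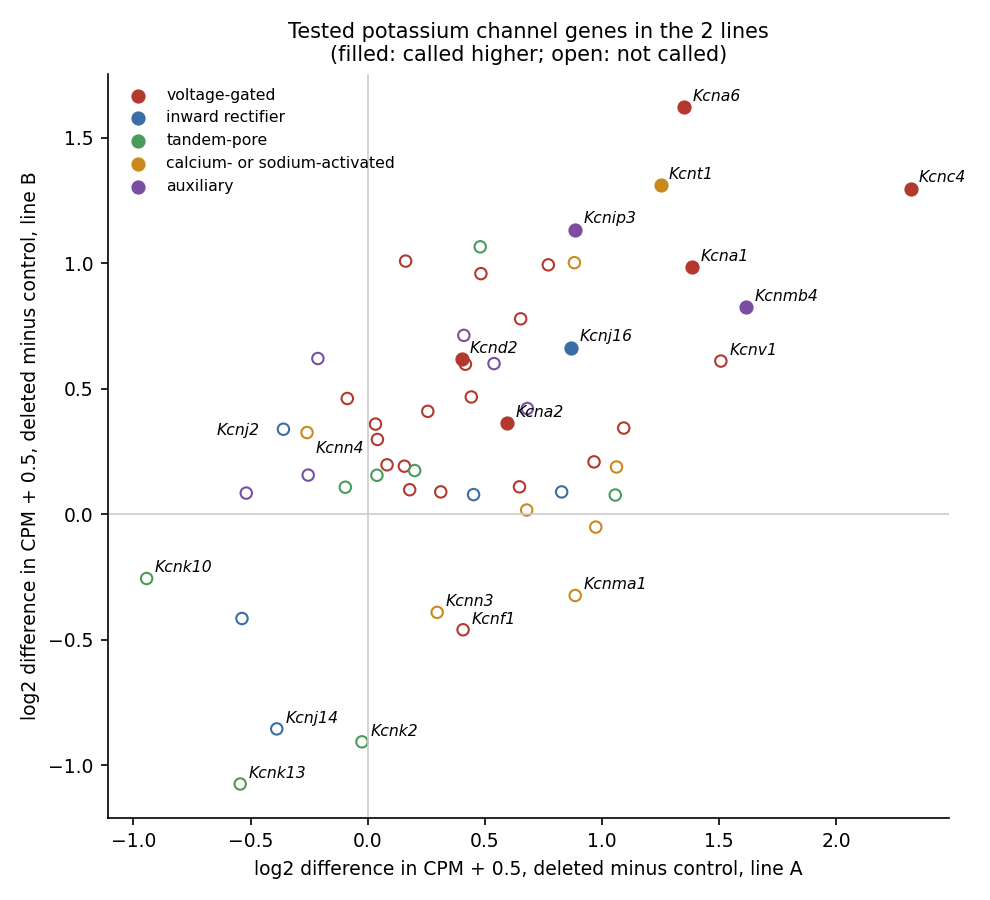
Log2 difference in CPM + 0.5 between deleted and control cells in line A (horizontal) and line B (vertical) for 54 of the tested members, coloured by class; filled circles passed the test, open circles did not. The 9 called genes plotted lie at the upper right. Of the labelled genes, Kcnma1, Kcnn3 and Kcnf1 are positive in line A only and Kcnj2 and Kcnn4 in line B only. In all, 11 tested members had opposite signs in the lines.

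Of the inward rectifiers, 6 of 14 were tested and Kcnj16 alone was called. Kcnj16, which encodes a subunit that pairs with other inward rectifiers and is sensitive to pH, had 120.1 and 112 CPM in deleted cells, against 65.6 and 70.8 CPM in control cells. Its log2 fold change was 0.77 ± 0.08 (SE; edgeR adjusted p = 0.0227), or 0.87 and 0.66 in lines A and B. Kcnj10, its usual partner in glia and outside the set, had 53.0 and 119.9 CPM in deleted cells, against 61.7 and 95.2 CPM in control cells (log2 0.06, edgeR adjusted p = 0.796). Among the other rectifiers, Kcnj2 had 4.27 and 6.03 CPM in deleted cells, against 5.62 and 4.66 CPM in control cells, so that the groups overlapped (edgeR adjusted p = 0.988). Kcnj4 had 6.03 and 3.09 CPM in deleted cells, against 4.27 and 2.90 CPM in control cells (log2 0.30, edgeR adjusted p = 0.377). Kcnj14, read at low counts, had the most negative fold change of the tested members, with 0.448 and 0.344 CPM in deleted cells, against 0.740 and 1.03 CPM in control cells (log2 -1.14, edgeR adjusted p = 0.135).

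Tandem-pore channels, which carry leak currents, gave 0 calls among 8 tested of 14 (median log2 0.12), and 3 of the 8 were negative in both lines. Kcnk2, a channel opened by membrane stretch and lipids, had 26.1 and 12.8 CPM in deleted cells, against 26.5 and 24.5 CPM in control cells. The lines disagreed in size, -0.02 (A) and -0.91 (B), and the change of -0.47 did not pass (edgeR adjusted p = 0.242). Kcnk1 had 13.9 and 2.72 CPM in deleted cells, against 6.43 and 2.55 CPM in control cells (log2 0.67, edgeR adjusted p = 0.197). Kcnk3, an acid-sensitive leak channel, had 4.001 and 10.3 CPM in deleted cells, against 2.73 and 4.63 CPM in control cells (log2 0.87, edgeR adjusted p = 0.0814). Kcnk13 had 4.90 and 0.656 CPM in deleted cells, against 7.37 and 1.94 CPM in control cells (log2 -0.95, edgeR adjusted p = 0.114), with overlapping groups.

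All 8 genes put by symbol in the calcium- or sodium-activated class were tested, and Kcnt1 was called. Kcnt1 encodes a sodium-activated channel. It had 19.1 and 8.03 CPM in deleted cells, against 7.74 and 2.93 CPM in control cells, a log2 fold change of 1.37 ± 0.15 (SE; edgeR adjusted p = 0.0235), with 1.25 and 1.31 in lines A and B. Kcnn2, a small-conductance calcium-activated channel, had 5.08 and 5.97 CPM in deleted cells, against 2.52 and 2.73 CPM in control cells (log2 1.07, edgeR adjusted p = 0.0506), with differences of 0.88 and 1.00 in lines A and B. The adjusted p was 0.0908 by DESeq2 with the line block, and 0.0235 to 0.0481 under 4 other edgeR settings with it. Kcnma1, the pore of the large-conductance calcium-activated channel, was split between the lines, with 40.0 and 16.5 CPM in deleted cells, against 21.4 and 20.7 CPM in control cells (edgeR adjusted p = 0.541). Kcnn3 had 15.1 and 11.5 CPM in deleted cells, against 12.2 and 15.2 CPM in control cells, and Kcnn4 had 6.33 and 15.8 CPM in deleted cells, against 7.67 and 12.5 CPM in control cells; neither passed (edgeR adjusted p = 0.891 for each).

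Among the auxiliary subunits, 8 of 15 were tested and Kcnip3 and Kcnmb4 were called. Kcnip3, a calcium-binding partner of Kcnd channels that is also known as a DNA-binding repressor, had 116 and 193 CPM in deleted cells, against 62.7 and 87.6 CPM in control cells. Its log2 fold change was 1.02 ± 0.09 (SE; edgeR adjusted p = 0.0197), or 0.88 and 1.13 in lines A and B. Kcnmb4, the neuronal beta subunit of the Kcnma1 channel, had 83.9 and 46.9 CPM in deleted cells, against 27.0 and 26.3 CPM in control cells. It changed by 1.24 ± 0.20 (SE; edgeR adjusted p = 0.0423), by 1.62 and 0.83 in lines A and B, while Kcnma1 itself did not pass. Kcnab2, a cytoplasmic subunit of Kcna channels, had 19.0 and 20.7 CPM in deleted cells, against 12.9 and 13.5 CPM in control cells (log2 0.59, edgeR adjusted p = 0.0544), with differences of 0.54 and 0.60 in lines A and B. It passed in edgeR with either other filter or the newer quasi-likelihood test (adjusted p of 0.0315 to 0.0490), and not by DESeq2 with the line block (0.0835).

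No source used here states whether counting used strand, and some called genes share exons with genes on the opposite strand. Kcna6 shares up to 2355 of its 5945 exon bases with Gm26673. Kcnmb4 shares up to 693 of its 3324 with Kcnmb4os2 and up to 355 with Kcnmb4os1. If strand was not used, reads in the shared bases cannot be told apart.

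Per length of exon, the members spanned a wide range, assuming that reads were counted over exons. The levels here are CPM per kb of exon, and 7 members averaged at least 10 over the 4 libraries, with 29 at least 1. Kcnc1 led with 73.5 ± 2.35 in deleted cells and 66.7 ± 1.60 in control cells (SD, n = 2 each). Kcnd3 followed with 45.0 ± 5.56 in deleted cells and 39.1 ± 1.404 in control cells. Kcnip3 had 43.6 ± 15.3 in deleted cells, which overlapped Kcnd3 there, and 21.2 ± 4.97 in control cells. Kcnj16 had 29.5 ± 1.36 in deleted cells and 17.3 ± 0.938 in control cells, and its control range overlapped that of Kcnip3. In deleted cells Kcnmb4 had 19.7 ± 7.87, Kcnd2 15.8 ± 3.04 and Kcna2 15.5 ± 0.798, and Kcnmb4 and Kcnd2 did not differ beyond their spread. In control cells Kcnmb4 had 8.01 ± 0.164, Kcnd2 10.96 ± 0.951 and Kcna2 11.2 ± 1.86. The level of Kcna2 was divided by 11906 exon bases, although the deposited counts list it at chr3:107101567-107106879, a shorter span. Its level may therefore be too low, and its place in this order is not settled.

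**Figure D3:**
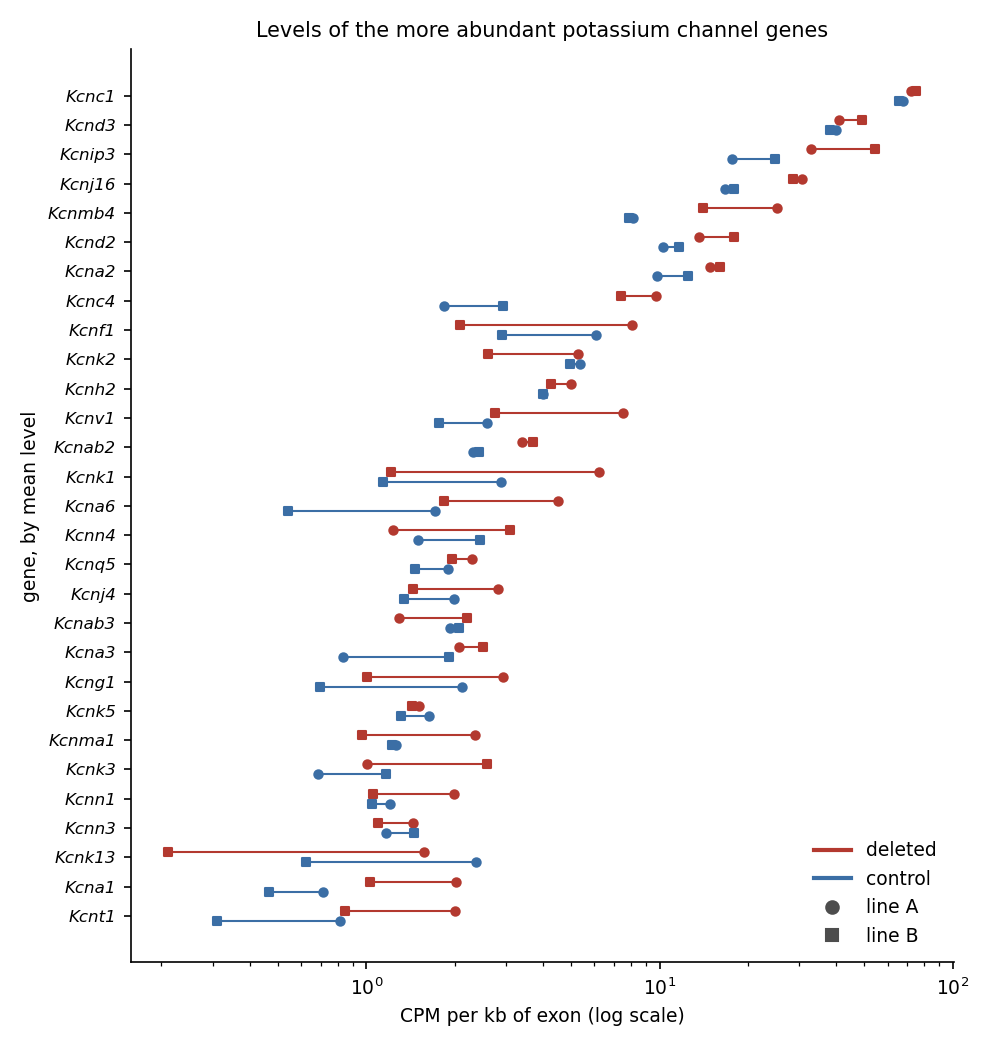
Level of 29 of the most abundant potassium channel genes in CPM per kb of exon (log axis), one row per gene in order of mean level. Red is deleted and blue control, circles are line A and squares line B. Kcnc1 and Kcnd3 lead in both groups, and Kcnip3, Kcnj16 and Kcnmb4 show red pairs to the right of the blue. Kcna2 may be placed too low, since its level was divided by more exon bases than its listed span holds.

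Several called members are near each other in the genome (mm10). On chromosome 3, Kcna2 and Kcnc4 were called, while Kcna3, 63.4 kb from Kcna2, was not and Kcna10, between Kcna2 and Kcnc4, was too low to test. On chromosome 6, Kcna1 and Kcna6, 62.5 kb apart, were both called, and the span listed for Kcna5 holds Kcna1. On chromosome 11, Kcnj16 was called and Kcnj2, 38.2 kb away, was not.

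The promoter sequences are shown for the 4 called genes whose RefSeq start is the gene start that the table lists, so that table and window describe the same start. They come from RefSeq's mouse build GRCm38.p6: Kcnc4 (chr3:107458849-107459148, minus strand), Kcna2 (chr3:107101317-107101616, plus strand), Kcnj16 (chr11:110967783-110968082, plus strand) and Kcnip3 (chr2:127522045-127522344, minus strand). Each runs 250 bases before to 50 bases after the start, 5′ to 3′, with the matches to searched motifs in capitals.
Kcnc4: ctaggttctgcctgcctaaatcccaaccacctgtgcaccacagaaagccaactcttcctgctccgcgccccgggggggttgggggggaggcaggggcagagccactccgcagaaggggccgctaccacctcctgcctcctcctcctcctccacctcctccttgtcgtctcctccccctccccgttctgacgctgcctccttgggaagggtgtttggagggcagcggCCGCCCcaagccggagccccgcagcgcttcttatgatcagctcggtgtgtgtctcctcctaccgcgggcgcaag
Kcna2: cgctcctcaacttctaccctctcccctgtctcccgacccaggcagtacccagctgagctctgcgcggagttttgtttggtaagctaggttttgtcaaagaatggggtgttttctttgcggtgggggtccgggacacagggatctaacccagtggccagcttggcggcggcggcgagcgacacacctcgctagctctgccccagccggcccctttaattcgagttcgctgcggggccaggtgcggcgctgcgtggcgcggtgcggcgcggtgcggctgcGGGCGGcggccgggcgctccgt
Kcnj16: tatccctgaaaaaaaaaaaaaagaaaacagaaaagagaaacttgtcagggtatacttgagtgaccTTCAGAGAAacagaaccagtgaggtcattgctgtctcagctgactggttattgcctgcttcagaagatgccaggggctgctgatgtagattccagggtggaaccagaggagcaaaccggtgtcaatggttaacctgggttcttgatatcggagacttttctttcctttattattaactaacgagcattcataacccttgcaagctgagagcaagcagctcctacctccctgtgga
Kcnip3: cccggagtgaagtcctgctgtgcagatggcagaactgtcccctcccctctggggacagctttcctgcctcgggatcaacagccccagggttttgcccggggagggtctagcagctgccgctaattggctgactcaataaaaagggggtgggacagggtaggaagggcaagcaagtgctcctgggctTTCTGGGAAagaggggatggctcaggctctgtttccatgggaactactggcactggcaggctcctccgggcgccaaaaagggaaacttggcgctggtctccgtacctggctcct
The motifs searched on both strands were the GC box GGGCGG, the cyclic AMP element TGACGTCA, the STAT motif TTCNNNGAA, the E-box CACGTG and the interferon-stimulated response element, and matches of different motifs shared no bases, whereas matches of 1 motif could overlap each other. GGGCGG stood in 7 of the 12 windows found for 7 of the 10 called members (58.3%), against 47.3% of the 91 windows of all members and 35.7% of all 32851 promoters. TTCNNNGAA stood in only 2 of the called members' 12 windows (16.7%), in 8.79% of all members' and 8.3% of all promoters. The interferon-stimulated response element likewise stood in 2 of the 12 (16.7%), and in 7.69% and 3.44%. TGACGTCA and CACGTG stood in 0 of the 12, with CACGTG in 7.15% of all promoters and TGACGTCA in 1.79%. A match is only a match of letters in these windows.

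Kcnd1, the only X-linked member, encodes a further subunit of A-type channels. It had 5.31 and 2.53 CPM in deleted cells, against 5.15 and 1.97 CPM in control cells (log2 0.19, edgeR adjusted p = 0.576), and the level followed the line more than the genotype.

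Of 36 members that were not tested, 9 had no count in any library, and the highest count was 27, for Kcna5 in deleted cells of line A. The imprinted-region genes Kcnq1 (0 and 2 counts in deleted cells, 1 and 0 in control cells) and Kcnk9 (0 and 0 in deleted cells, 0 and 1 in control cells) were among them.

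Genes known to act with potassium channels or in potassium transport were listed apart, with the repressor Rest and 12 symbols listed as neighbours of Kcnq1 and Kcnk9. Of the 51 symbols, 48 were in the table and 36 rows were tested. Of these rows, 4 were higher and 1 lower, with a median log2 fold change of 0.22. The neighbours gave 8 of the tested rows and 1 of the higher calls. Over all tested rows, 3.71% were higher and 1.89% lower, and the median was 0.01. Akap5, an anchoring protein for kinases at channels, had 18.9 and 16.3 CPM in deleted cells, against 9.79 and 10.4 CPM in control cells (log2 0.80, edgeR adjusted p = 0.0471), with differences of 0.91 and 0.62 in lines A and B. Slc12a5, the neuronal potassium-chloride cotransporter, had 10.7 and 6.22 CPM in deleted cells, against 4.81 and 3.37 CPM in control cells (log2 1.02, edgeR adjusted p = 0.0476; 1.07 in line A and 0.79 in line B). Tmem175, a lysosomal potassium channel, had 39.6 and 32.1 CPM in deleted cells, against 26.0 and 23.3 CPM in control cells (log2 0.53, edgeR adjusted p = 0.0479; 0.60 in line A and 0.45 in line B). Cd81, listed as a neighbour of Kcnq1, had 1405 and 921 CPM in deleted cells, against 1009 and 695 CPM in control cells (log2 0.44, edgeR adjusted p = 0.0467; 0.48 in line A and 0.41 in line B). Sgk1, a kinase that regulates channels, was lower, with 56.3 and 42.8 CPM in deleted cells, against 77.9 and 71.7 CPM in control cells (log2 -0.60, edgeR adjusted p = 0.0400; -0.46 in line A and -0.74 in line B). Dpp6, an auxiliary protein of Kcnd channels singled out after its values were seen, had 34.9 and 13.1 CPM in deleted cells, against 6.76 and 6.10 CPM in control cells, and just missed the threshold (log2 1.75, edgeR adjusted p = 0.0518; 2.29 in line A and 1.05 in line B). Dpp6 passed under all 4 other edgeR settings with the line block (adjusted p of 0.0144 to 0.0476), by DESeq2 with the block (3.56e-07) and by DESeq2 without it (0.0115), but not in edgeR without it (0.406). Rest, a repressor that binds many channel genes, had 66.7 and 57.2 CPM in deleted cells, against 66.1 and 61.0 CPM in control cells (edgeR adjusted p = 0.729).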

How the data were processed

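RNA-seq was measured in 4 libraries of neural stem cells. Per the submitters' processing notes, bcl2fastq, TopHat2 2.0.12, the build mm10 and edgeR were used; no source used here names the counting tool or its use of strand. The table the authors deposited holds counts without normalization. Its 8 columns of counts per parental genome were not used, since their names match no single sample and with them a group has more columns than samples; allelic ratios were not tested. Columns name a genotype and a line number, which no sample label carries, so they were tied to groups and not to single samples. Total counts were tested with edgeR 4.0.16 (R 4.3.3): TMM factors, filterByExpr, and the quasi-likelihood test with line as a block, Benjamini-Hochberg over 14860 rows, threshold 0.05. Lines were split into a transduced and an untransduced part, per the labels' protocols, and deviations of same-line libraries from their group means correlated at 0.719 over 14860 genes, so libraries were paired by line. The lines were separate, but 2 per group leave p-values that rest on few cultures. CPM used TMM-scaled library sizes; line differences used a pseudocount of 0.5. Levels per kb used union exon lengths of GENCODE M21. DESeq2 1.42.0 was an alternative. The test was run on counts simulated with the dispersion that it had estimated, which cannot show whether 2 lines give an adequate estimate. Named were the called members (1 is not reported here), the 3 most abundant tested members of each class, Kcnd1, Kcnq1, Kcnk9, called partners, Smchd1 and Xist; Kcnn2, Kcnab2, Kcnv1, Kcnk3, Kcnk13, Kcnj14, Kcnj10, Kcna3, Kcna5, Kcnf1, Rest, Dpp6 and the marker genes given singly were added after their values were seen. The members and lists were chosen with earlier results of these data known. Xist had 2154 and 2672 CPM in deleted cells, against 1801 and 2219 CPM in control cells.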

Additional observations from a re-analysis of the deposited data

Results flagged for a closer look

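Of the 55 tested members, 11 had differences of opposite sign in the 2 lines, against 3776 of all 14860 tested rows. Some of these members are given here, with Kcnj10 and Rest from outside the set. With 1 library per group in each line, the difference between lines was not tested. The log2 differences, deleted minus control, were -0.36 in line A and 0.34 in line B for Kcnj2, 0.89 and -0.32 for Kcnma1, 0.30 and -0.39 for Kcnn3, -0.26 and 0.33 for Kcnn4, and 0.41 and -0.46 for Kcnf1. Kcnj10, outside the set, had -0.22 in line A and 0.33 in line B. Rest, a repressor outside the set, had 0.01 in line A and -0.09 in line B. None of these 7 genes passed the test over both lines.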

How the results depend on the processing

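All 10 called members were also called by every other edgeR fit with the replicate block and by DESeq2 with it (11 members higher, 0 lower). Members called higher numbered 11 with RLE size factors, 13 under either other filter and 12 by the newer quasi-likelihood test; Kcnv1, Kcnn2 and Kcnab2 were the ones gained. With no replicate block, edgeR called 0 rows in either direction over all genes, members and partners (unadjusted, 1019 rows higher and 718 lower). DESeq2 with no replicate block, added after the data were seen, called 263 rows higher and 115 lower, 4 members, and 2 partners higher and 0 lower. With no filter on low counts, 1131 rows were higher and 671 lower, and 8 partners higher; with a minimum of 1 CPM, 897 and 475 rows, and 7 partners; DESeq2 with the block gave 427 rows lower and 7 partners higher. Leaving out 1 library, without the line term since a line then lacks a partner, gave 0 to 0 calls for each count; a fit on 1 line alone gives values only. All 10 called members kept a positive change in every one of these. That sign was fixed in advance, since each had both deleted libraries above both control libraries. The cause of these changes was not tested. The log2 change turned direction for Kcnj2 (0.0026 with no replicate block; -0.36 to 0.34 with a library or line left out) and Kcnf1 (0.18 with no replicate block, 0.0038 at a minimum of 1 CPM, 0.17 by DESeq2 with no replicate block, 0.016 by the newer edgeR test; -1.11 to 0.83). With a library or line left out it also turned for Kcnj4 (-0.21 to 0.73), Kcnk1 (-0.72 to 1.697), Kcnma1 (-0.36 to 0.90), Kcnd1 (-0.49 to 0.99), Kcnk2 (-0.99 to 0.0129), Kcnn3 (-0.39 to 0.30), Kcnn4 (-0.69 to 0.64), Kcnk13 (-2.82 to 0.51), Kcnj10 (-0.59 to 0.61) and Rest (-0.1542 to 0.0494). Other settings for allelic ratios were not run, since those ratios were not tested. Members with few counts are read least precisely.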
